A study of Homo sapiens with 4 samples.

Results

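The promoters of 39 genes mutated in Charcot-Marie-Tooth disease and related inherited neuropathies were examined by ATAC-seq in wild-type and MORC2 knockout HEK293T cells. MORC2 is an ATPase that the study reports to compact DNA in vitro, and its own mutations cause an axonal form of this disease. The genes were given as a list of symbols, a rule that uses no count, although earlier results of these data were known when it was drawn up. Each of the 39 was found among the 28775 rows of the promoter table. ATAC-seq measures how readily the Tn5 transposase cuts DNA, so that the number of fragments at a promoter reports how open its chromatin is. HEK293T cells descend from human embryonic kidney and carry an abnormal number of chromosomes. Wild-type (WT) cells gave 2 libraries and MORC2 knockout (KO) cells another 2, the KO libraries coming from 2 bulk pools electroporated with Cas9 and guide 1 or guide 2, so that guide and KO replicate cannot be told apart. The pools were not cloned, and all libraries came from the same cell line.

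Charcot-Marie-Tooth disease is a degeneration of the longest motor and sensory nerves. Demyelinating forms arise from genes that Schwann cells use to build and turn over myelin, and axonal forms from genes for mitochondria, the cytoskeleton, membrane traffic, protein folding and the charging of tRNA. Many of these genes act in every cell, whereas a few, such as those for compact myelin proteins and neurofilaments, belong to glia or neurons. A kidney-derived line therefore holds housekeeping promoters of the list next to promoters of other lineages.

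The counts of a library, summed over all rows, came to 9435801 to 15152636, of which mitochondrial rows took between 20.6% and 35.1%. The smallest share was in KO replicate 2, the deepest library. A fragment counted in several rows would add to such a sum for each of them, which was not tested. The median neuropathy promoter held between 302 and 610 fragments in a library, against 132 to 250 for the median of all rows. Levels are in CPM, the count scaled by library size and TMM factor, and a percentile is a rank by mean WT CPM among all rows. Of 8 genes taken as marks of the kidney line, 5 lay above the median of all rows, with EMX2 and SALL1 at percentiles 93.6 and 90.3, whereas PAX2 and PAX8 lay at 39.9 and 31.5. Of 10 genes of other tissues, 9 lay below the median, among them ALB, PTPRC, CD3E and HBB between percentiles 8.13 and 13.6. Among 16 Schwann cell and myelin genes, 11 were below it, including SOX10 at percentile 45.6. The 5 above it were FOXD3, POU3F1, ERBB3, CNP and NGFR, at percentiles 83.6, 81.5, 78.5, 61.6 and 58.0. Of 10 neuronal genes, 6 lay above it, with TUBB3 highest at percentile 75.2.

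To show what kind of DNA lies before these genes, the 250 bases upstream of the start are printed below for FGD4 and GARS1, which were called in KO, for EGR2, the next in order of p, for DNM2 and SH3TC2, the most and least open of the 31 genes with a RefSeq promoter sequence, and for PMP22 at its outermost and innermost listed starts. Sequences are from RefSeq on GRCh38.p14, on the strand of the gene, with each CG dinucleotide in capitals. The reads were aligned to another assembly, CHM13, so these letters describe the genes and not the counted windows themselves.
FGD4 (chr12:32399308-32399557, plus strand): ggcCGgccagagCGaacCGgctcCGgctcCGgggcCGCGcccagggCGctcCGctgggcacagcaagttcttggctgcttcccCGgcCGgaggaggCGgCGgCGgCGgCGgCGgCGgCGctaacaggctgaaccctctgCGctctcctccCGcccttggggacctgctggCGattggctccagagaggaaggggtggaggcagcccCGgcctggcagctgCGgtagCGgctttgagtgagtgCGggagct
GARS1 (chr7:30594485-30594734, plus strand): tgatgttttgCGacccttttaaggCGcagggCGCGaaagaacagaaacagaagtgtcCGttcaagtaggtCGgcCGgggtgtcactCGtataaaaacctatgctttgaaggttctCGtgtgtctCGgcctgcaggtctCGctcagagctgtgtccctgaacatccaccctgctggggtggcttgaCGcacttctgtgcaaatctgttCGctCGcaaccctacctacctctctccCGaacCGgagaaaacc
EGR2 (chr10:62819168-62819417, minus strand): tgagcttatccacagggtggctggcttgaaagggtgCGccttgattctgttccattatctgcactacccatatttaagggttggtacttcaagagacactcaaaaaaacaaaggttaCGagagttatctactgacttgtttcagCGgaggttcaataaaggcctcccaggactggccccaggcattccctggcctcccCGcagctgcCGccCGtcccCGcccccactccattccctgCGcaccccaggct
DNM2 (chr19:10717829-10718078, plus strand): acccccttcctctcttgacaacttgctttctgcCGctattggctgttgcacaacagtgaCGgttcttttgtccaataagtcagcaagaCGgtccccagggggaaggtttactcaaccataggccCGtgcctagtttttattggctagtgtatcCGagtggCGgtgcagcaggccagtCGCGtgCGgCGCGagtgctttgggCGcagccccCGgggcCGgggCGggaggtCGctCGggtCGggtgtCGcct
SH3TC2 (chr5:149063063-149063312, minus strand): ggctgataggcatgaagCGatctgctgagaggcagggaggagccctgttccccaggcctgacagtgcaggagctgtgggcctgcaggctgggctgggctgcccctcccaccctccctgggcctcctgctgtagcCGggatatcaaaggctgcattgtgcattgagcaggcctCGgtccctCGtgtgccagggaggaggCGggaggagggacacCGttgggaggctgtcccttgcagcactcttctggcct
PMP22, outermost (chr17:15265327-15265576, minus strand): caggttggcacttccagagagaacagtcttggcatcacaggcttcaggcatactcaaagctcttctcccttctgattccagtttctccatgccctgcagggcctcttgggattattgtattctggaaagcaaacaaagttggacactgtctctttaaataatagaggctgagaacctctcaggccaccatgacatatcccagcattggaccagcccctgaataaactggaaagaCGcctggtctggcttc
PMP22, innermost (chr17:15260821-15261070, minus strand): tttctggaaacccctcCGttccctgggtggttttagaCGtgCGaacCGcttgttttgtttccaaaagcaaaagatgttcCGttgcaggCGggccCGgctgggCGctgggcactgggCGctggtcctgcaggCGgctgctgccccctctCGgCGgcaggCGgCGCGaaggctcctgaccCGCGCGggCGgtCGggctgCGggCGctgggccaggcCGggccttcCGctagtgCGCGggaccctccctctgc

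FGD4 had 26 CG dinucleotides and 74.0% G and C in this stretch, GARS1 16 and 54.4%, DNM2 19 and 60.8%, EGR2 8 and 54.8%, and SH3TC2 6 and 65.6%. These are outermost starts, and other listed starts of the same genes had up to 34 CG at GARS1 and 35 at EGR2, while the 5 starts of FGD4 spanned 134764 bases with at most 26. At PMP22 the outermost start had 1 CG and the innermost 26. The FGD4 stretch also held an uninterrupted run of 8 GGC triplets, a length that 0.0614% of 19554 promoters reached and that no other gene of the list with a sequence did.

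The list was on the open side of the promoters in WT cells. Of the 39 promoters, 33 lay above the median of all rows, 15 were above percentile 75 and 5 above percentile 90, and the median percentile was 70.4. The rows also hold noncoding genes, such as MIR638 and SBF2-AS1. Of 59 other genes of inherited neuropathy, 45 lay above that median (median percentile 73.4). So did 15 of 15 other cytosolic tRNA synthetases (79.8), 12 of 14 other myotubularins and partners (65.1) and 3 of 8 other small heat shock genes (44.3). Among the 39, the range from the most to the least open was 21.0-fold. YARS1, the tyrosyl-tRNA synthetase, stood at the top with 112 CPM in each WT library and 113 and 109 CPM in the KO libraries, replicate 1 first here and throughout. DNM2, the dynamin that pinches vesicles from membranes, followed with 75.3 and 80.4 CPM in WT and 73.6 and 75.9 CPM in KO. PRPS1, which makes the ribose phosphate precursor of nucleotides, had 76.3 and 71.8 CPM in WT and 79.3 and 77 CPM in KO, overlapping DNM2. At the bottom, SH3TC2, an endosomal protein of Schwann cells, had 6.54 and 4.10 CPM in WT and 4.59 and 3.75 CPM in KO. PRX, the periaxin that anchors myelin to the basal lamina, and GJB1, the gap junction protein connexin 32, averaged 7.60 ± 0.564 and 7.69 ± 1.32 CPM in WT (SD, n = 2 each), values that cannot be put in order beyond this spread. With PMP22, TRPV4 and NEFH, these were the 6 promoters below the median of all rows. The median percentile was 69.2 in WT replicate 1 alone and 70.2 in WT replicate 2 alone, though neighbours in the order changed places. HARS1, for example, lay above KIF1B in WT replicate 1 (45.1 and 44.3 CPM) and below it in WT replicate 2 (38.5 and 50.5 CPM).

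**Figure D1:**
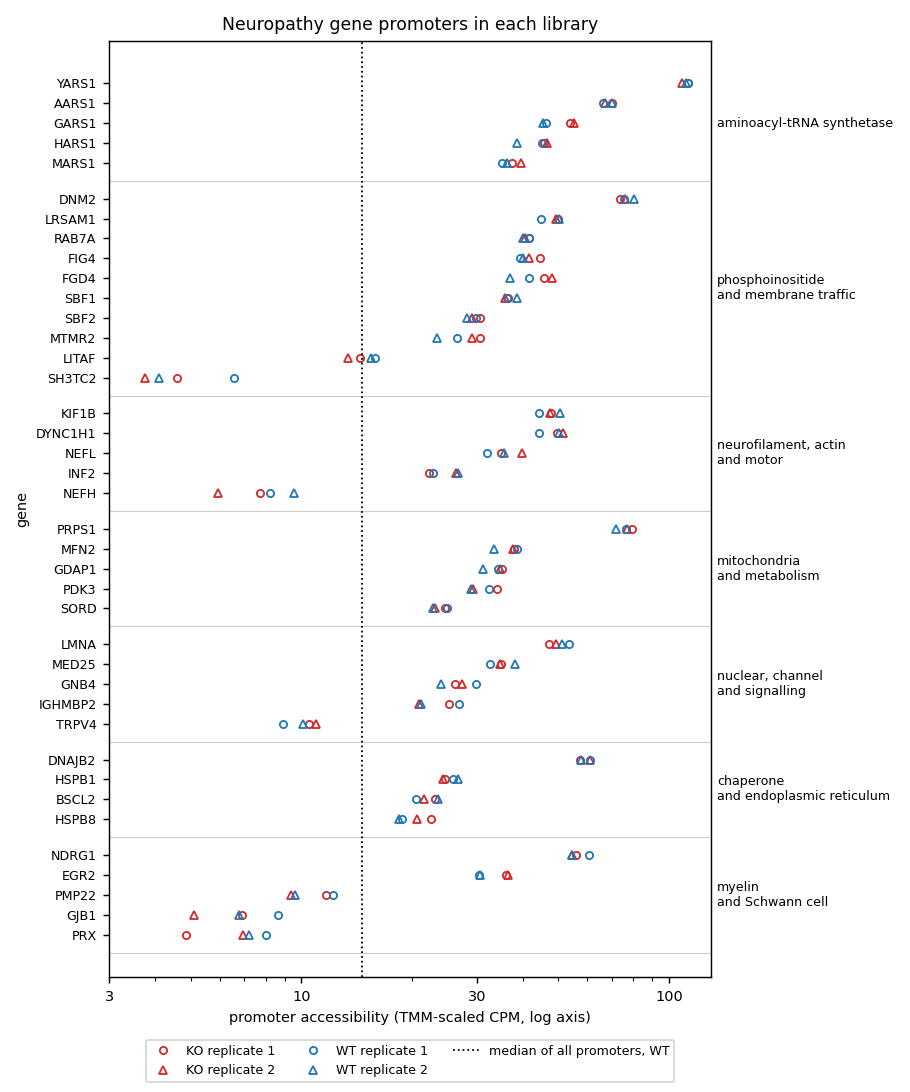
Accessibility of the 39 neuropathy gene promoters in each of the 4 libraries (horizontal axis, TMM-scaled CPM, logarithmic), grouped by role, with WT in blue, KO in red, circles for replicate 1 and triangles for replicate 2. YARS1 lies near 112 CPM and SH3TC2 near 5.32 CPM in WT, and the dotted line marks the WT median of all promoters, 14.6 CPM.

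By role, the 5 aminoacyl-tRNA synthetases had the highest median, 45.8 CPM, with 35.8 ± 0.794 CPM at MARS1, the least open of them, which lay at percentile 72.5. The 10 genes of phosphoinositide turnover and membrane traffic had a median of 38.4 CPM, from SH3TC2 to DNM2. The 5 neurofilament, actin and motor genes had a median of 33.8 CPM, led by KIF1B, a kinesin, at 47.4 ± 4.36 CPM and closed by NEFH, the heavy neurofilament subunit, at 8.86 ± 0.934 CPM. NEFL, the light subunit, was far more open than NEFH, at 33.8 ± 2.67 CPM. The 5 genes of mitochondria and metabolism had a median of 32.7 CPM and ran from SORD, which oxidises sorbitol, at 23.9 ± 1.49 CPM to PRPS1. The nuclear, channel and signalling genes had a median of 26.9 CPM, from TRPV4, a cation channel, at 9.50 ± 0.812 CPM to LMNA, which encodes lamins A and C, at 52.4 ± 1.56 CPM. The 4 chaperone and endoplasmic reticulum genes had a median of 24.1 CPM, from HSPB8, a small heat shock protein, at 18.6 ± 0.291 CPM to DNAJB2, a partner of HSP70, at 59.3 ± 2.45 CPM. The 5 myelin and Schwann cell genes had the lowest median, 10.9 CPM, although NDRG1, a stress-responsive gene expressed far beyond Schwann cells, reached 57.5 ± 4.43 CPM and EGR2, the zinc finger factor that drives myelination, 30.5 ± 0.251 CPM.

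Openness in WT cells went with the CG count upstream of the gene. Over the 31 genes with a sequence, Spearman's rho between the CG count at the outermost listed start and WT CPM was 0.61 and Pearson's r with log2 CPM was 0.61, as descriptions across genes that share libraries and base composition. Over all 19554 promoters with a sequence, rho was 0.61 and r was 0.57. The 7 genes with under 10 CG, which were PMP22, GJB1, PRX, SH3TC2, LITAF, INF2 and EGR2, had a median of 10.9 CPM (5.32 to 30.5), against 39.5 CPM (18.6 to 77.8) for the other 24. Over all promoters the corresponding medians were 4.41 and 35.1 CPM. With the start of most CG in place of the outermost one, rho was 0.16 for the list and 0.61 for all promoters, so the relation in the list rested on which of several starts was taken. The promoter table gives 1 row a gene, and RefSeq lists several starts for 12 of the 31 genes. At PMP22 the outermost and innermost starts printed above are 4506 bases apart, and the low count of PMP22, with 12.2 and 9.64 CPM in WT and 11.6 and 9.38 CPM in KO, belongs to 1 window that may not hold its CG-rich start. The outermost listed start was the end of the gene record for 29 of the 31 genes, the exceptions being LITAF and GNB4.

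**Figure D2:**
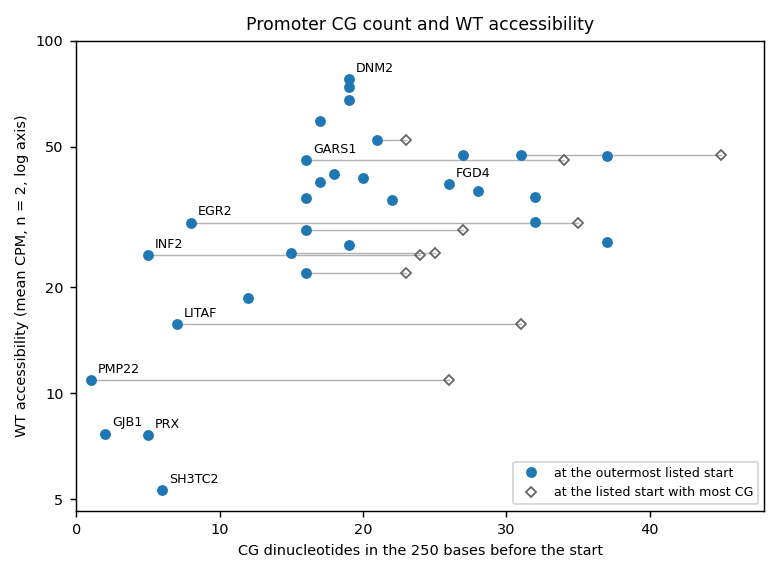
WT accessibility (vertical axis, mean CPM of 2 libraries, logarithmic) against the number of CG dinucleotides in the 250 bases before the start of 31 neuropathy genes. Filled circles use the outermost listed start, and open diamonds joined to them by grey lines use the listed start with the most CG. GJB1, PRX, SH3TC2 and PMP22, all with under 10 CG, lie lowest, and the diamonds for PMP22 and LITAF lie far to the right.

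Short motifs were searched on both strands of the same 250 bases. The GC box (GGGCGG) was present at 20 of 31 genes (64.5%, against 51.0% of all promoters), among them FGD4, EGR2 and DNM2. The CCAAT box (CCAAT) was found at 10 (32.3%, against 34.0%) and the TATA box (TATAAA) at 4 (12.9%, against 9.65%), which were GARS1, BSCL2, DNAJB2 and SBF2. Of the small heat shock genes, HSPB1 and HSPB8 both held the heat shock element (GAANNTTC), as did GARS1, making 3 of 31 (9.68%, against 5.18%). The amino acid response element (TGATGNAA) was found at AARS1 (2.57% of all promoters), the ETS site (CCGGAAG) at HARS1 (10.7%), and the YY1 site (AAGATGGC) at BSCL2 and MED25 (1.42%). The NRF1 core (GCGCATGC, 3.42% of all promoters), the E-box (CACGTG, 7.29%) and the cAMP response element (TGACGTCA, 2.12%) were found at 0 of the 31. No sequence was at hand for IGHMBP2, NDRG1, TRPV4, YARS1, NEFL, SORD, GDAP1 and NEFH.

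To ask whether loss of MORC2 changes the openness of these promoters, KO was compared with WT by edgeR's quasi-likelihood test over all promoters, and a promoter was called at a Benjamini-Hochberg adjusted p under 0.05. All 39 promoters passed the filter on low counts. FGD4 and GARS1 were called, both higher in KO, and 0 were called lower. The share called, 5.13%, stands beside 4.45% of all 27647 tested promoters. Over all promoters 3.45% were called higher and 0.995% lower, that is 954 and 275. These totals rested on the fit, with 216 higher and 172 lower after loess offsets on abundance, 19 and 1 with total count scaling, and 7 and 0 by the DESeq2 Wald test. The study itself reported far fewer for KO against WT, 17 differentially accessible genes, most of them higher in KO. It tested small windows and summarised them over promoters, so its number is not the same measure as the totals here. Without adjustment, 7 neuropathy promoters had a p under 0.05 (17.9%), 5 higher and 2 lower, against 20.3% of all promoters. KO and WT libraries did not overlap at 16 neuropathy promoters (41.0%), with KO above at 11 and below at 5, whereas over all promoters the groups did not overlap at 50.6%. The median log2 fold change of the list was 0.0061, against −0.017 over all tested promoters, and 22 values were above 0 and 17 below.

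On the TMM scale the differences were bounded closely at most of these promoters. The 95% interval of the log2 fold change lay within 0.5 of 0 at 35 of 39 genes, and the standard error ranged from 0.062 to 0.12 among the 33 genes above the median of all rows. At YARS1 the interval ran from −0.14 to 0.10, at AARS1 from −0.12 to 0.14, at DNAJB2 from −0.13 to 0.13 and at DNM2 from −0.18 to 0.073. At MFN2, the mitofusin of the outer mitochondrial membrane, it ran from −0.096 to 0.22, and at RAB7A, the GTPase of late endosomes, from −0.15 to 0.16. These intervals do not cover the choice of scale. With total count scaling, where the total includes mitochondrial rows, the values at YARS1 (0.114), AARS1 (0.142) and DNM2 (0.077) lay above their upper limits. Those at DNAJB2, MFN2 and RAB7A stayed within theirs. The 4 genes with wider limits, NEFH, GJB1, PRX and SH3TC2, held between 37 and 118 fragments in a library and had standard errors of 0.17 to 0.22.

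**Figure D3:**
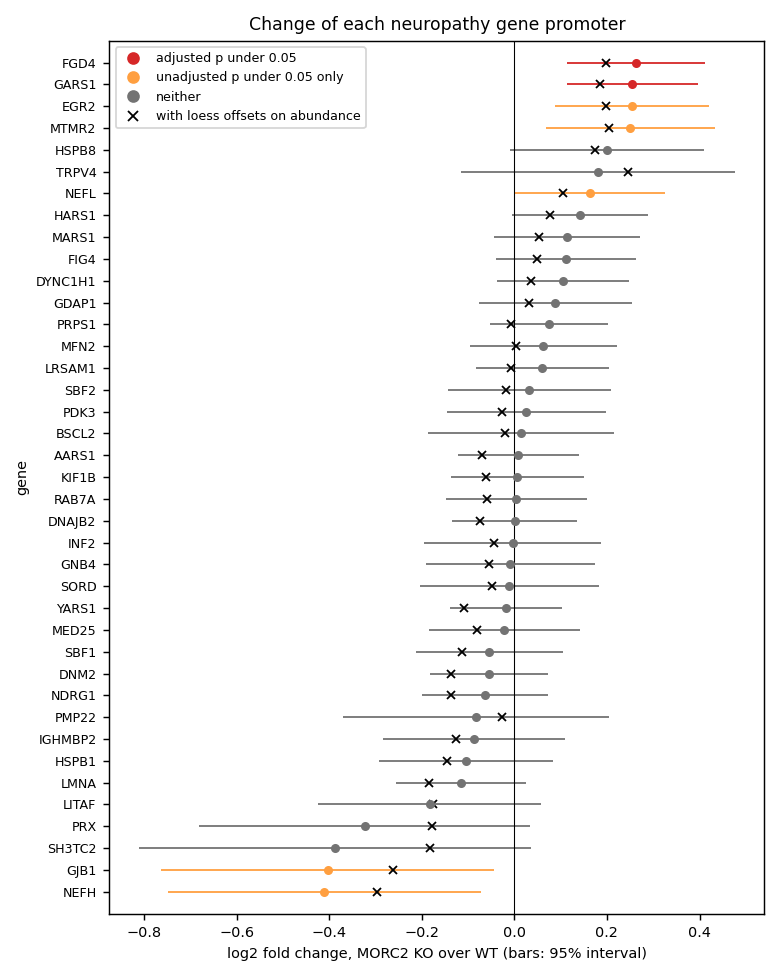
Log2 fold change of KO over WT at the 39 neuropathy gene promoters, sorted, with 95% intervals as bars and black crosses for the value after loess offsets on abundance. FGD4 (0.26) and GARS1 (0.25), in red, were called, the 5 orange genes had an unadjusted p under 0.05 only, and all intervals in grey include 0.

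FGD4 encodes frabin, an exchange factor for the GTPase CDC42 that shapes the actin cytoskeleton of Schwann cells. At its promoter (Gene ID 121512) lay 499 and 822 KO fragments, in order of replicate, against 401 and 333 WT fragments. This gave 45.8 and 48.2 CPM in KO and 41.6 and 36.9 CPM in WT, so both KO libraries were above both WT libraries, and the WT libraries differed from each other by more than WT replicate 1 did from KO replicate 1. The log2 fold change was 0.26 (SE 0.076, edgeR adjusted p 0.0228). GARS1 encodes glycyl-tRNA synthetase, which charges tRNA with glycine in the cytosol and mitochondria. Its promoter (Gene ID 2617) held 588 and 940 fragments in KO and 445 and 409 in WT, or 53.9 and 55.1 CPM against 46.2 and 45.3 CPM. Here the groups were well apart relative to the spread within them, and the log2 fold change was 0.25 (SE 0.072, adjusted p 0.0195). In order of p, GARS1 and FGD4 stood at places 625 and 677 of 27647. Neither call held under every setting. With loess offsets that remove the trend of fold change on abundance, the log2 fold changes were 0.20 at FGD4 (adjusted p 0.190) and 0.19 at GARS1 (adjusted p 0.191). Leaving out 1 library in turn, both stayed above 0, but both lost the call without KO replicate 2 (FGD4 0.23, adjusted p 0.380, and GARS1 0.24, adjusted p 0.288) and without WT replicate 2 (FGD4 0.18, adjusted p 0.337, and GARS1 0.24, adjusted p 0.141). The number of promoters called in the whole table was then 41 and 230, in place of 1229. KO replicate 2 was the deepest library, and the part of depth in these calls was not tested. Total count scaling and the DESeq2 Wald test called neither gene, with log2 fold changes of 0.40 and 0.26 at FGD4.

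**Figure D4:**
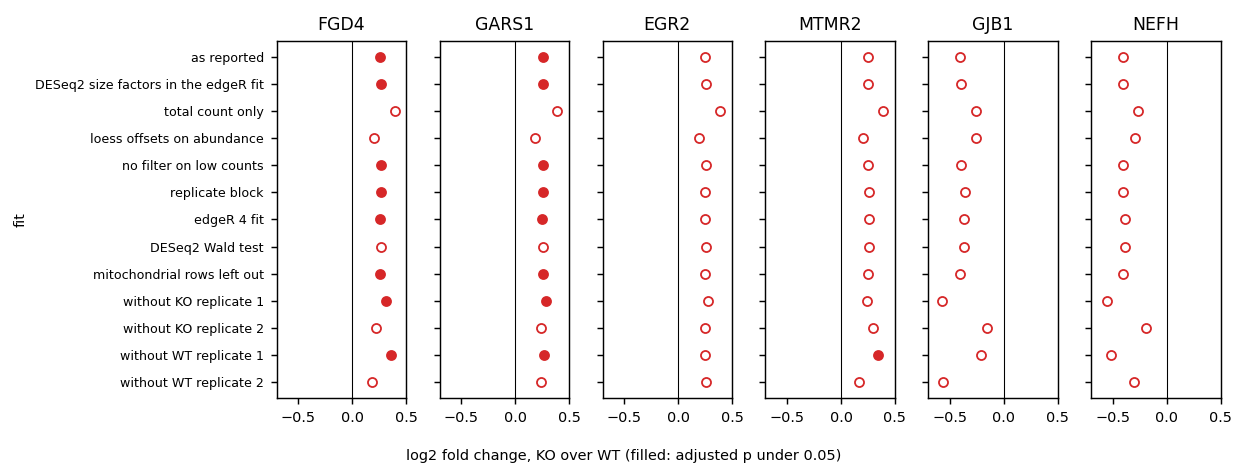
Log2 fold change of KO over WT at 6 neuropathy gene promoters (panels) in the reported fit and in each alternative fit (rows), with filled points where the adjusted p was under 0.05. FGD4 and GARS1 stay above 0 and GJB1 and NEFH below 0 in every row, while the calls of FGD4 and GARS1 are absent in 5 of the 12 alternatives, and MTMR2 is called without WT replicate 1 alone.

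Of the myelin and Schwann cell genes, EGR2 came nearest to a call. It had 36.1 and 36.5 CPM in KO and 30.3 and 30.7 CPM in WT, with replicates close together and the groups apart, a log2 difference of 0.25 (SE 0.085, adjusted p 0.0573). With loess offsets EGR2 had 0.20 (edgeR adjusted p 0.279), and by the DESeq2 Wald test 0.26 (adjusted p 0.960). With each library left out its value ran from 0.25 to 0.28. GJB1 pointed the other way, with 6.88 and 5.10 CPM in KO and 8.62 and 6.76 CPM in WT, where KO replicate 1 lay above WT replicate 2. Its log2 fold change was −0.40 (SE 0.18, unadjusted p 0.0282, adjusted p 0.188), but −0.16 without KO replicate 2 and −0.22 without WT replicate 1. PRX had 4.86 and 6.92 CPM in KO and 8.0 and 7.20 CPM in WT, and the groups did not overlap, but the log2 fold change of −0.32 had an adjusted p of 0.299 and was −0.12 without KO replicate 1 and −0.64 without KO replicate 2. PMP22, the myelin protein whose duplication causes the most common form of the disease, had a log2 fold change of −0.083 (SE 0.15), and NDRG1 of −0.064 (SE 0.070). PMP22 and NDRG1 each overlapped between groups.

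Among the genes of phosphoinositide turnover and membrane traffic, MTMR2, a phosphatase of endosomal phosphoinositides, had 30.5 and 29.1 CPM in KO and 26.5 and 23.4 CPM in WT. The groups were apart, at 0.25 on the log2 scale (SE 0.093, adjusted p 0.0951), and it was called only without WT replicate 1 (0.35, adjusted p 0.0457). Its pseudophosphatase partners SBF1 and SBF2 had log2 fold changes of −0.054 and 0.032, and both overlapped between groups. The MTMR2 and SBF2 rows happened to hold the same counts in both KO libraries, 333 and 496, while in WT they held 255 and 211 against 288 and 254. FIG4, a phosphatase of the same lipids on late endosomes, had 44.7 and 41.6 CPM in KO and 39.4 and 40.0 CPM in WT (0.11, adjusted p 0.411). LITAF, a membrane protein of late endosomes, had 14.4 and 13.4 CPM in KO and 15.9 and 15.5 CPM in WT, with KO below by a log2 value of −0.18 (SE 0.12, adjusted p 0.399). LRSAM1, a ubiquitin ligase, and RAB7A and DNM2 had log2 fold changes of 0.061, 0.0042 and −0.055. At SH3TC2 a log2 value of −0.39 (SE 0.22, adjusted p 0.291) came from libraries that overlapped, and it was −0.0042 (adjusted p 0.996) without WT replicate 1 and −0.68 without WT replicate 2.

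The neurofilament genes lay on opposite sides of 0. NEFL had 34.9 and 39.9 CPM in KO and 31.9 and 35.7 CPM in WT, overlapping, at 0.16 on the log2 scale (SE 0.082, unadjusted p 0.0477, adjusted p 0.240). NEFH had 7.70 and 5.92 CPM in KO and 8.20 and 9.52 CPM in WT, not overlapping, with −0.41 (SE 0.17, unadjusted p 0.0173, adjusted p 0.148), the lowest value of the list in this fit. It was −0.19 without KO replicate 2 and −0.56 without KO replicate 1, and other genes were lower without KO replicate 2 (PRX −0.64) or without WT replicate 2 (SH3TC2 −0.68). Neither was called, and the difference between these genes was not tested. INF2, a formin that assembles actin, KIF1B and DYNC1H1, the heavy chain of dynein, had log2 fold changes of −0.0034, 0.0061 and 0.10. INF2 varied more between replicates than between groups, with 22.3 and 26.3 CPM in KO and 22.7 and 26.7 CPM in WT.

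The genes of mitochondria and metabolism gave small values. Their log2 fold changes ran from −0.011 at SORD to 0.089 at GDAP1, a protein of the outer mitochondrial membrane, and 0 of 5 had an unadjusted p under 0.05, where 20.3% of all promoters did. PRPS1 (79.3 and 77 CPM in KO, 76.3 and 71.8 CPM in WT) and GDAP1 (35.0 and 34.7 CPM in KO, 34.2 and 31.2 CPM in WT) did not overlap between groups, while MFN2, SORD and PDK3, a kinase of pyruvate dehydrogenase, did. SORD has a nearly identical pseudogene, SORD2P, on the same chromosome. The SORD row had 24.6 and 23.1 CPM in KO and 24.9 and 22.8 CPM in WT, and the SORD2P row held only 12 to 23 fragments a library.

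Among the chaperone and endoplasmic reticulum genes, HSPB8 had 22.5 and 20.6 CPM in KO and 18.8 and 18.4 CPM in WT, apart, at 0.20 on the log2 scale (SE 0.11, adjusted p 0.272). HSPB1, its relative, had 24.6 and 24.3 CPM in KO and 25.9 and 26.7 CPM in WT, apart in the other direction, with −0.10 (SE 0.096, adjusted p 0.562). DNAJB2 had 57.3 and 60.9 CPM in KO and 61.1 and 57.6 CPM in WT, and BSCL2, the seipin of lipid droplets, had a log2 fold change of 0.014.

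Besides GARS1, the tRNA synthetases HARS1 and MARS1, for histidine and methionine, had KO above WT without a call. HARS1 had 45.8 and 46.6 CPM in KO and 45.1 and 38.5 CPM in WT (0.14, unadjusted p 0.0590, adjusted p 0.266), a difference that lay mostly in WT replicate 2. MARS1 had 37.3 and 39.6 CPM in KO and 35.2 and 36.3 CPM in WT (0.11, adjusted p 0.431). AARS1 and YARS1, for alanine and tyrosine, had 0.0081 and −0.019 and overlapped between groups.

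Of the nuclear, channel and signalling genes, 0 of 5 had an unadjusted p under 0.05, again beside 20.3% of all promoters. LMNA had 47.1 and 49.3 CPM in KO and 53.5 and 51.3 CPM in WT, not overlapping, at −0.11 on the log2 scale (SE 0.072, adjusted p 0.357). TRPV4 had 10.5 and 11 CPM in KO and 8.93 and 10.1 CPM in WT, also not overlapping, with 0.18 (SE 0.15, adjusted p 0.514). MED25, a Mediator subunit, IGHMBP2, a helicase, and GNB4, a G protein subunit, had log2 fold changes of −0.022, −0.088 and −0.0086, and each overlapped between groups. GNB4 spread from 24.0 to 29.8 CPM between the WT libraries, a wider range than that between its KO libraries.

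The direction of these values went with abundance, as it did over the whole table. Of the 6 neuropathy promoters below the median of all rows, 5 had a log2 fold change under 0 and their median was −0.36, whereas the other 33 had a median of 0.014. Over all 3466 tested promoters in the same range of WT CPM as these 6 the median was −0.16, and 2609 were below 0. Loess offsets on abundance brought the median of the 6 to −0.18, against −0.023 over the 3466 promoters of the same range. The median of the whole list became −0.044, against 0.0014 over all promoters. NEFH, GJB1 and SH3TC2 then had −0.30, −0.26 and −0.18, and TRPV4, the 1 of the 6 above 0, had 0.25. The scale mattered as well. Scaling to the library total alone moved the median of all promoters to 0.12 and that of the list to 0.14, so directions are relative to the TMM scale. That total includes the mitochondrial rows, which took 31.8% and 20.6% in KO and 34.5% and 35.1% in WT. The part of this difference in the move was not tested. On the TMM scale without mitochondrial rows the median of the list was 0.0058.

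**Figure D5:**
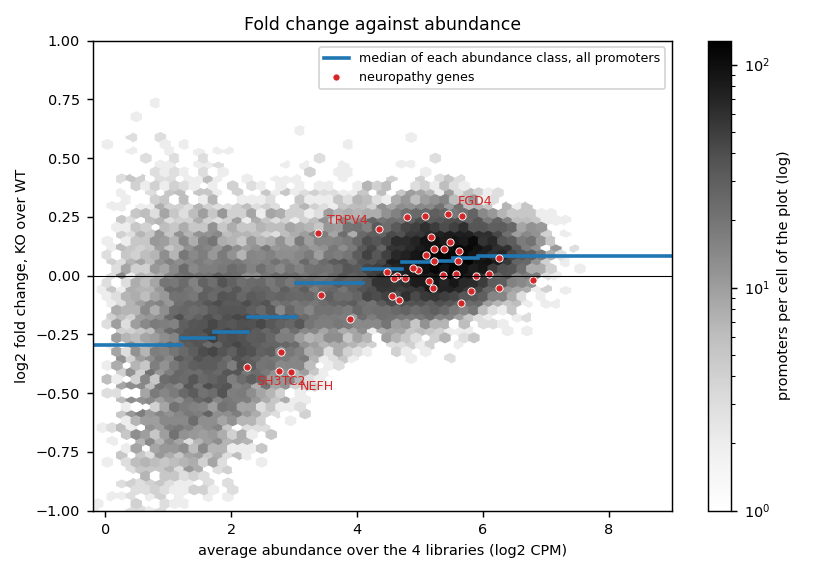
Log2 fold change of KO over WT (vertical axis, cropped at 1 and −1) against average abundance (log2 CPM), with all tested promoters as grey cells, the median of each of 10 abundance classes in blue and the neuropathy genes in red. The class medians run from −0.29 to 0.083, and NEFH and SH3TC2 lie on the left, low-abundance side while FGD4 lies on the right.

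At 9 of the 39 genes the row was nearly equal to that of a gene close by in the gene order. Counts differed by under 5% in every library between HARS1 and HARS2, FIG4 and AK9, IGHMBP2 and MRPL21, YARS1 and S100PBP, LRSAM1 and RPL12, AARS1 and DDX19B (and, further along the chromosome, ST3GAL2), MARS1 and ARHGAP9, LMNA and MEX3A, and SH3TC2 and SH3TC2-DT. HARS1, for instance, held 499, 794, 434 and 348 fragments in the KO and then the WT libraries, and HARS2 held 499, 793, 435 and 347. Whether such rows count the same fragments was not tested, since the table gives no window positions. Likeness alone does not show it, as ST3GAL2 lies 4 rows from AARS1 while EXOSC6, next to AARS1, differed by up to 16.8%. FGD4 and GARS1 had no such neighbour, and the GARS1-DT row held 16 to 38 fragments a library.

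Genes related to these by disease or function were examined in the same fit. The counts below stand beside 3.45% called higher and 0.995% called lower over all tested promoters. Of 59 other genes of inherited neuropathy, 2 were called higher and 2 lower, with a median log2 fold change of 0.069. The MORC2 row was higher, with 37.0 and 37.5 CPM in KO and 25.7 and 29.6 CPM in WT (0.43, SE 0.087, adjusted p 0.000279), but it was nearly equal to the TUG1 row (0.43), with 403, 639, 247 and 267 fragments in the KO and WT libraries against 394, 628, 244 and 263, so the value cannot be assigned to either gene. An open promoter does not report on the edit, so this does not check the KO label. The study assessed the knockout by western blot of cells from both guides. How complete the loss was in the uncloned pools cannot be read from these counts. SCN9A, a sodium channel of pain neurons, had 44.4 and 44.2 CPM in KO and 38.3 and 35.0 CPM in WT (0.27, adjusted p 0.0228). The called lower genes were sparse. SLC5A7, the choline transporter, held 28 to 37 fragments a library (−0.86, adjusted p 0.0364), and DRP2, a periaxin partner, held 80 to 99 (−0.54, adjusted p 0.0399). With loess offsets MORC2 kept its call (0.38, adjusted p 0.00494), and SCN9A (adjusted p 0.181), SLC5A7 (0.276) and DRP2 (0.194) did not.

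Of 16 Schwann cell and myelin genes 0 were called higher and 1 lower, SOX10, the lineage factor, with 7.70 and 6.51 CPM in KO and 11.1 and 9.97 CPM in WT (−0.59, adjusted p 0.0153). Its adjusted p was 0.0824 with loess offsets. Over all tested promoters 0.995% were called lower. Of 14 other myotubularins and partners, 2 were called higher, where 3.45% of all tested promoters were. PIKFYVE, the lipid kinase that works with FIG4, had 80.0 and 85.3 CPM in KO and 73.0 and 66.3 CPM in WT (0.25, adjusted p 0.0102), and MTMR12 had 95.4 and 103 CPM against 89.0 and 84.9 CPM (0.20, adjusted p 0.0436). Neither was called with loess offsets (adjusted p 0.146 and 0.378). Of 15 other cytosolic tRNA synthetases 0 were called, with 2 at an unadjusted p under 0.05, both higher, and a median of 0.10. In the lists of 10 neuronal genes, 8 other small heat shock genes, 8 kidney line genes and 10 genes of other tissues edgeR also called 0, with 1, 0, 2 and 1 at an unadjusted p under 0.05. For these lists and the synthetases the shares over all tested promoters were 4.45% called and 20.3% at an unadjusted p under 0.05.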

How the data were processed

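Per the labels and the study's methods, nuclei were tagged with Tn5 and sequenced in paired ends. The authors used Trim Galore for trimming and bowtie2 for alignment to T2T-CHM13, kept proper pairs of high mapping quality and removed duplicates with Picard. The deposited table holds raw fragment counts per promoter, 1 row per NCBI Gene ID. The study describes promoters as windows around gene starts. Whether this table was counted so is not given in the sources used here. The 2 samples of a group are labelled as replicates. The error behind each edgeR p-value, standard error and interval came largely from a dispersion pooled over promoters, and little from a promoter's own libraries. INF2, with SDs of 2.79 CPM (WT) and 2.82 CPM (KO), had a standard error of 0.098. HSPB1, with SDs of 0.589 CPM (WT) and 0.173 CPM (KO), had 0.096.

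Symbols came from RefSeq (GRCh38.p14), whose gene order was used to find neighbours within 4 rows. Rows were filtered with filterByExpr, which left 27647 of 28775, and scaled by TMM. For KO against WT, edgeR 4.0.16 (R 4.3.3) gave a two-sided quasi-likelihood test over all promoters with its legacy fit, with Benjamini-Hochberg adjustment. Standard errors and 95% intervals were derived from the F statistics. DESeq2 1.42.0 was an alternative. On simulated counts of 27616 rows, 80% of 200 promoters changed by 0.6 on the log2 scale, with a mean count of at least 50, were recovered. The simulation gave every row the same dispersion, and the log2 fold changes of the 39 genes ran only from −0.41 to 0.26. The share recovered therefore does not give the power for changes of that size. An exact permutation test of 2 against 2 cannot go below a two-sided p of 0.333, so single values were not tested in that way. Members and lists were chosen with earlier results of these data known. Values in every library are given for called members, those at an unadjusted p under 0.05 and the extremes of the list. They are also given for the extremes of each role, apart from KIF1B and NDRG1. Rows shared with a neighbour or copy, with counts under 25% apart, were to be given in the same way. This limit also took unrelated rows of like depth, so 5% was used, a choice made after the values were seen. IGHMBP2, LRSAM1 and AARS1, within that limit, are not given in every library. For the others, levels or fold changes are given. Some marker genes are not reported here. The peak list was not used, because no annotation of its assembly was at hand.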

Additional observations from a re-analysis of the deposited data

How the results depend on the processing

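The count of 2 neuropathy promoters called, FGD4 and GARS1, both higher in KO, was 2 again with no filter, edgeR on DESeq2 size factors, the replicate block, the edgeR 4 fit and omission of mitochondrial rows. It was 0 with loess offsets (8 before adjustment), the DESeq2 Wald test (3) and total count scaling (5), and 0 to 3 when each library was left out. The cause was not tested. FGD4 and GARS1 had 0.40 and 0.39 with total count scaling (adjusted p 0.457 each), 0.20 and 0.19 with loess offsets, and 0.26 each with DESeq2 (adjusted p 0.882 and 0.782). With the replicate number as a block both kept the call (0.26 and 0.25, adjusted p 0.0487 and 0.0491). Deviations of same-numbered libraries correlated at −0.00027, so that the numbers do not pair the libraries. The median of the list ran from −0.0066 to 0.053 with each library left out, and the WT median percentile from 69.2 to 70.5 over all settings. Of the other neuropathy genes, 4 calls became 1 with loess offsets and 0 with total counts, of the Schwann cell genes 1 became 0 in both, and of the myotubularins 2 became 0 in both and 1 with the block.

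Values near 0 changed sign, none of them called. With total count scaling these were 0.062 (PMP22), 0.072 (NDRG1), 0.081 (SBF1), 0.077 (DNM2), 0.13 (SORD), 0.13 (INF2), 0.032 (HSPB1), 0.11 (YARS1), 0.018 (LMNA), 0.11 (MED25), 0.058 (IGHMBP2) and 0.13 (GNB4). With loess offsets they were −0.018 (SBF2), −0.058 (RAB7A), −0.0075 (LRSAM1), −0.027 (PDK3), −0.0073 (PRPS1), −0.061 (KIF1B), −0.074 (DNAJB2), −0.019 (BSCL2) and −0.071 (AARS1). INF2 had 0.00077 with DESeq2 size factors, DNAJB2 −0.0048 in the edgeR 4 fit and −0.0015 with the block, and GNB4 0.0020 with the block. With each library left out, ranges that crossed 0 were −0.032 to 0.047 (AARS1), −0.085 to 0.11 (BSCL2), −0.044 to 0.056 (DNAJB2), −0.15 to 0.16 (GNB4), −0.25 to 0.10 (IGHMBP2), −0.14 to 0.12 (INF2), −0.087 to 0.10 (KIF1B), −0.023 to 0.15 (LRSAM1), −0.13 to 0.094 (MED25), −0.035 to 0.17 (MFN2), −0.14 to 0.019 (NDRG1), −0.053 to 0.15 (PDK3), −0.24 to 0.10 (PMP22), −0.024 to 0.035 (RAB7A), −0.011 to 0.079 (SBF2), −0.072 to 0.056 (SORD) and −0.024 to 0.013 (YARS1). Without a change of sign, NEFH ranged from −0.56 to −0.19, GJB1 from −0.58 to −0.16, PRX from −0.64 to −0.12 and SH3TC2 from −0.68 to −0.0042. Of the remaining comparisons in fits with all libraries, 281 kept direction and call. WT peaks at these promoters, with a stricter threshold or a larger overlap, were not run, for want of an annotation on their assembly.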
